A study of Mus musculus with 10 samples.

Results

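Messenger RNA for 10 hepatokines and circulating growth regulators was measured in the livers of mice treated with MI-883, a ligand of the nuclear receptors CAR and PXR, and of vehicle-treated control mice. The 10 genes, chosen by name as secreted signals of the liver, were *Fgf21*, *Gdf15*, *Inhbe*, *Igfbp1*, *Igfbp2*, *Fetub*, *Ahsg*, *Lect2*, *Angptl6* and *Enho*. They were found by their Entrez gene numbers among the 16647 genes of the count table, and all 10 were among the 13219 genes that had enough reads to be tested, namely at least 60 counts summed over the 10 livers. Both groups were male humanized PXR-CAR-CYP3A4/3A7 mice, in which human PXR, CAR, CYP3A4 and CYP3A7 replace their mouse counterparts, so that the controls carried the same alleles as the treated mice. A group with the mouse receptors was not analysed here, and the sources used here do not name the strain background. Mice aged 10 to 15 weeks received a high-fat diet (HFD) for 8 weeks and, while still on HFD, oral gavage of MI-883 at 5 mg/kg on 3 days per week, or of vehicle alone, for 4 weeks. Blood was taken after a fast of 3 hours, and the feeding state of the animals when the livers were removed is not stated separately. Each group comprised 5 livers from 5 animals.

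Hepatokines are proteins that the liver releases into the blood and that act on other organs, and several of them follow the nutritional state of the animal. FGF21 and GDF15 are stress-responsive hormones that reach distant receptors in adipose tissue and brain, and activin E, the product of *Inhbe*, acts on adipocytes. IGFBP1 and IGFBP2 bind insulin-like growth factors in plasma, with *Igfbp1* repressed by insulin, and the fetuins are abundant plasma glycoproteins of hepatocytes. LECT2 is a chemotactic factor made by hepatocytes, ANGPTL6 is an angiopoietin-like growth factor and *Enho* encodes adropin.

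The libraries held 24014461 to 36221514 counts in control livers (median 31734138) and 23513665 to 28349963 counts after MI-883 (median 24581671). Levels are given as CPM, read counts relative to library size after scaling of each library by the TMM method of edgeR, and as mean ± S.D. with n = 5 livers per group unless stated otherwise. Of the hepatocyte markers, all 7 tested were expressed and their summed level was 65602 to 76100 CPM in control and 56829 to 68912 CPM in MI-883-treated livers. Markers of other cells were far lower and overlapped between the groups. Their summed levels in control and treated livers, in this order, were 25.05 to 117 and 35.1 to 190.1 CPM for cholangiocytes, 238 to 386 and 206 to 493 CPM for Kupffer cells and leukocytes, 109 to 148 and 118 to 171 CPM for endothelial cells, and 236 to 384 and 276 to 459 CPM for stellate cells. No marker of the 5 lists passed an adjusted P of 0.05 in edgeR, although all 5 tested cholangiocyte markers, 5 of 6 endothelial markers and 7 of 8 stellate cell markers had higher fitted levels after MI-883. In this order the median log2 fold changes of the 3 lists were 0.55, 0.24 and 0.27. An unadjusted P under 0.05 in edgeR was reached by 1, 3 and 3 of their markers and by no Kupffer cell or leukocyte marker, beside 15.6% of all tested genes. Of the 7 hepatocyte markers 5 had lower fitted levels, with a median log2 fold change of -0.16 and 2 at an unadjusted P under 0.05, and *Ttr*, encoding the plasma protein transthyretin, was lower in every treated liver than in any control. The part of these shifts in the values below, those of *Igfbp2* and *Ahsg* included, was not tested. In whole liver, fewer cells of a type and less RNA per cell cannot be told apart.

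*Lect2* was the 1 gene of the 10 that differed between the groups at an adjusted P under 0.05 in edgeR's quasi-likelihood test, and it was higher after MI-883. Over all tested genes 1.03% passed this threshold, 0.764% with higher levels. *Igfbp2* was lower in every MI-883-treated liver than in any control liver but did not pass in edgeR, whereas DESeq2 called both genes, against 3.5% of all tested genes. The groups did not overlap in these 2 genes, as was the case in 3.98% of all tested genes, of which the part with lower treated livers made up 1.93% of all tested genes. *Gdf15* had a higher mean after MI-883, without passing in either tool. The other 7 genes had fitted log2 fold changes between -0.32 and -0.0099, and the 95% interval of 6 of these 7 included 0. Of the 10 genes, 2 had positive and 8 negative log2 fold changes with a median of -0.055, beside a median of 0.0045 over all tested genes, and 3 had an unadjusted P under 0.05, as did 15.6% of all tested genes.

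**Figure D1:**
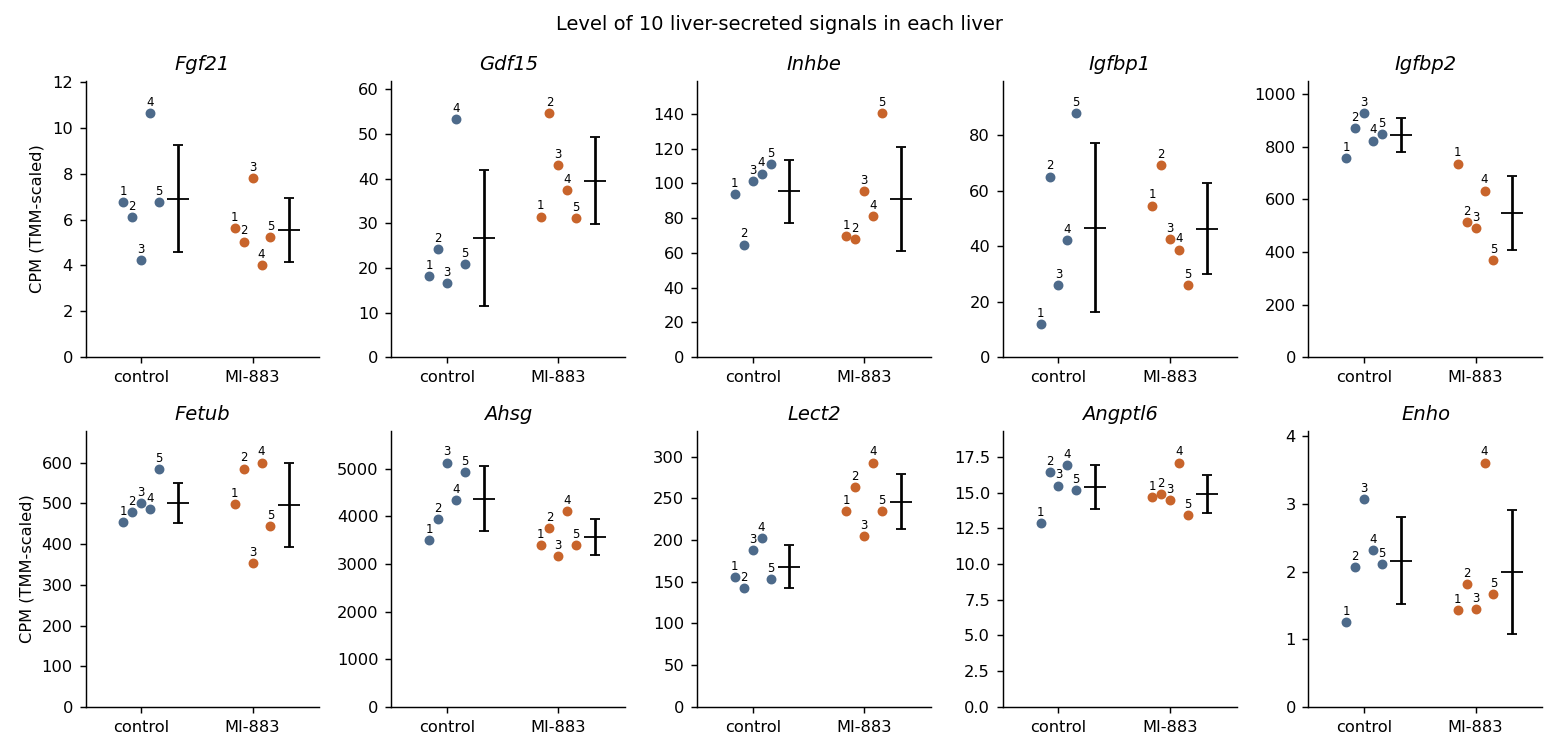
Level of the 10 genes in each liver (y axis: TMM-scaled CPM from 0, a separate scale for each gene; blue points: control, orange points: MI-883, numbered by replicate; horizontal line and bars: mean ± S.D., n = 5). The groups do not overlap in *Lect2* and *Igfbp2*, while in *Igfbp1* the control livers alone span 12.0 to 88.1 CPM.

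**Figure D2:**
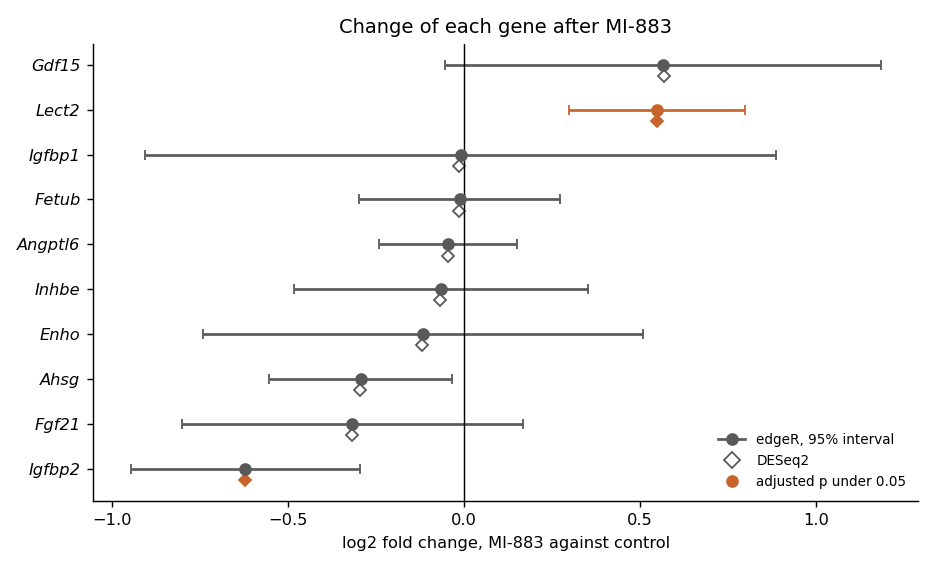
Fitted change of the 10 genes (x axis: log2 fold change of MI-883 against control; circles with bars: edgeR with its 95% interval; diamonds: DESeq2; orange: adjusted P under 0.05). *Lect2* at 0.55 is orange in both tests and *Igfbp2* at -0.62 in DESeq2 only.

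The genes differed widely in abundance. Control levels were ordered per kilobase of the longest transcript matched to RefSeq. They fell from 2944 ± 456 CPM per kb for *Ahsg* over 647 ± 48.7 for *Igfbp2* and 324 ± 31.9 for *Fetub* to 201 ± 30.7 for *Lect2*. Below these were *Igfbp1* at 30.6 ± 19.9, *Gdf15* at 17.2 ± 9.86, *Angptl6* at 9.72 ± 0.988, *Fgf21* at 7.26 ± 2.46 and *Enho* at 1.70 ± 0.509. The 4 most abundant genes did not overlap with their neighbours in this order over the 5 control livers. *Igfbp1* overlapped with *Gdf15*, *Gdf15* with *Angptl6* and *Angptl6* with *Fgf21*, while *Enho* lay below all others. *Inhbe* was left out of the order because its transcript length was uncertain, with 5319 bases in the annotation used for lengths and a span of 2447 bases for the gene in RefSeq. *Enho* rested on 39 to 83 counts per liver and *Fgf21* on 92 to 368, the fewest of the 10 genes.

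*Lect2* (Entrez gene 16841, chromosome 13, 56529734 to 56548559, minus strand, GRCm38) was at 155, 142, 188, 202 and 153 CPM in control livers 1 to 5 and at 234, 264, 205, 293 and 235 CPM in MI-883-treated livers 1 to 5. All 5 treated livers lay above the highest control, with the narrowest gap between treated liver 3 and control liver 4. The mean was 168 ± 25.7 CPM in control and 246 ± 33.3 CPM in treated livers. The log2 fold change was 0.55 (standard error, SE, 0.116, edgeR adjusted P = 0.0424), which is 1.46-fold with a 95% interval of 1.23 to 1.74. An exact permutation test on mean log2 CPM (two-sided) yielded P = 0.00794, the smallest that 5 livers against 5 can give, and DESeq2 gave an adjusted P of 0.00090. The edgeR call was narrow. It was kept without control liver 4 (adjusted P = 0.0341) or treated liver 3 (0.0373) and was lost without any 1 of the other 8 livers, with adjusted P from 0.0585 to 0.117 and log2 fold changes from 0.48 to 0.59.

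The downstream part of *Lect2* overlaps *Fbxl21* on the opposite strand (chromosome 13, 56522388 to 56537898). The strand setting of the counting is not given in the sources used here, so that reads of the 2 genes in the shared stretch may not be told apart. *Fbxl21* was at 6.35 ± 1.47 CPM in control and 5.37 ± 0.402 CPM in treated livers, a log2 fold change of -0.24 (edgeR adjusted P = 0.462). The part of shared reads in the values of either gene was not tested. The promoter of *Lect2*, from 250 bases before to 50 bases after the RefSeq start (chr13:56548489-56548788, minus strand, GRCm38.p6), is shown because this was the called gene. It held 48.0% G and C, beside a median of 52.67% over 32851 promoter windows, and none of the motifs searched, which are spelled out beside the other promoters.
Lect2 promoter: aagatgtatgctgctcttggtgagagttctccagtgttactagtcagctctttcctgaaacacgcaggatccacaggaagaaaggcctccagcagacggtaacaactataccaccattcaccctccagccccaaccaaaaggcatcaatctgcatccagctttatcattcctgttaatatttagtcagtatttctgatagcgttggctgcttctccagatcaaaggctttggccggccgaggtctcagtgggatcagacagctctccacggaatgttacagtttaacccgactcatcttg

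Of the IGF-binding proteins, IGFBP2, which carries insulin-like growth factors in plasma, is encoded by *Igfbp2* (Entrez gene 16008, chromosome 1, 72824480 to 72852474, plus strand). Its control levels were 756, 871, 929.6, 824 and 848 CPM in livers 1 to 5, and the levels after MI-883 were 736, 514, 492, 634 and 370.3 CPM. Every treated liver lay below the lowest control, by a small margin in treated liver 1, and the treated livers were spread more widely than the controls. The mean was 846 ± 63.7 CPM in control and 549 ± 140.3 CPM in treated livers, a fitted fold of 0.650 with a 95% interval of 0.518 to 0.814. The log2 fold change of -0.62 (SE 0.151) had an adjusted P of 0.0746 in edgeR, not under the threshold, and of 0.0034 in DESeq2. The exact permutation test gave the smallest possible P of 0.00794 (two-sided). Without treated liver 1 the edgeR value was -0.75 with an adjusted P of 0.0228, and without any other liver the adjusted P was 0.0616 to 0.166.

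*Igfbp1* (Entrez gene 16006, chromosome 11, 7197787 to 7202546, plus strand), which hepatocytes express when insulin is low, was at 12.0, 65.1, 26.1, 42.1 and 88.1 CPM in control livers 1 to 5 and at 54.6, 69.3, 42.7, 38.8 and 26.1 CPM in treated livers 1 to 5. The lowest and the highest of all 10 livers were both controls. The levels spanned 7.32-fold within the controls and 2.65-fold within the treated livers. Its S.D. of log2 CPM within groups was 0.885, larger than in 99.3% of the 11610 genes with at least 1 CPM on average and reads in every liver, whose median was 0.166. The means were 46.7 ± 30.4 and 46.3 ± 16.4 CPM, with a log2 fold change of -0.0099 (SE 0.415, edgeR adjusted P = 0.993). The 95% interval from -0.91 to 0.89 leaves room for a change of either sign of the size seen in *Lect2* and *Igfbp2*, and the sign of the estimate itself turned with scaling by total counts.

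Both IGF-binding protein genes had letters of interest upstream of their starts. The windows of all 9 genes with a RefSeq promoter were searched on both strands for 7 motifs. In *Igfbp2* (chr1:72824230-72824529, plus strand, 67.0% G and C) the E-box CACGTG, in capitals, lay 142 bases before the start, and 7.15% of all promoter windows held it. In *Igfbp1* a 60-base stretch (chr11:7197667-7197726, plus strand) held CAAAACA, the letters of the insulin response element, 108 bases before the start, and 6.28% of all windows held these letters. The stretch of *Igfbp1* is shown because this gene varied most between livers of 1 group, and the window of *Igfbp2* because its groups did not overlap. A match describes the sequence and is no evidence of binding.
Igfbp2 promoter: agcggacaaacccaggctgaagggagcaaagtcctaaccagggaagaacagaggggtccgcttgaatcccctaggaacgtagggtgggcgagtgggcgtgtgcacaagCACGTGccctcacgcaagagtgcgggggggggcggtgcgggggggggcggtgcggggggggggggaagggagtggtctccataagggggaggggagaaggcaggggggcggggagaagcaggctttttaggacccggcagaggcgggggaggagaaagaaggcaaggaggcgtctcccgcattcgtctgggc
Igfbp1 upstream stretch: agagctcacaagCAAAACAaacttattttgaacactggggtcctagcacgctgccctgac

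Of 16 other genes of the IGF system, 13 were tested, 7 with higher and 6 with lower fitted levels, and none passed in edgeR. Their median log2 fold change was 0.19, and 3 had an unadjusted P under 0.05. *Igf1* itself, the main growth factor that the liver secretes, was at 564 ± 81.2 CPM in control and 445 ± 26.7 CPM in treated livers, a log2 fold change of -0.34 (SE 0.101, adjusted P = 0.142 in edgeR, 0.0332 in DESeq2). In *Igf1* all 5 treated livers lay below the control median and 2 below the lowest control. *Igfals*, whose product stabilizes IGF complexes in plasma, was at 90.3 ± 14.8 and 77.8 ± 17.97 CPM (log2 fold change -0.21, adjusted P = 0.519). *Htra1*, a secreted protease that cleaves IGF-binding proteins, was at 1.35 ± 0.312 CPM in control and 2.41 ± 0.339 CPM in treated livers without overlap, with a log2 fold change of 0.83 (SE 0.195, adjusted P = 0.0679 in edgeR, 0.0066 in DESeq2). *Igfbp6* was low and scattered, at 0.685 ± 0.476 and 1.55 ± 1.29 CPM (adjusted P = 0.347).

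Among the stress-responsive hormones, *Gdf15* (Entrez gene 23886, chromosome 8, 70629393 to 70632470, minus strand) depended on 1 control liver. It was at 18.2, 24.2, 16.5, 53.3 and 20.8 CPM in control livers 1 to 5 and at 31.5, 54.7, 43.0, 37.5 and 31.1 CPM in treated livers 1 to 5. All 5 treated livers lay above the control median, and control liver 4 lay above 4 of the 5 treated livers. With all livers the means were 26.6 ± 15.2 and 39.6 ± 9.80 CPM, and the log2 fold change was 0.57 (SE 0.287, 95% interval -0.05 to 1.19, adjusted P = 0.361 in edgeR, 0.442 in DESeq2). P was 0.0714 in the exact permutation test (two-sided). Without control liver 4 the other 4 controls were at 16.5 to 24.2 CPM (19.9 ± 3.36, n = 4), the groups did not overlap, and the log2 fold change was 0.99 (SE 0.171, edgeR adjusted P = 0.0300), a fitted fold of 1.98. Control liver 4 is singled out here by its *Gdf15* value, so the lack of overlap without it follows from that choice. Without any other liver the edgeR adjusted P was 0.328 to 0.545. No label sets control liver 4 apart, and whether its value is technical was not tested. The receptor genes of GDF15 gave no measure, since *Gfral* had no entry among the counted genes and *Ret* had 0 to 1 counts per liver.

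**Figure D3:**
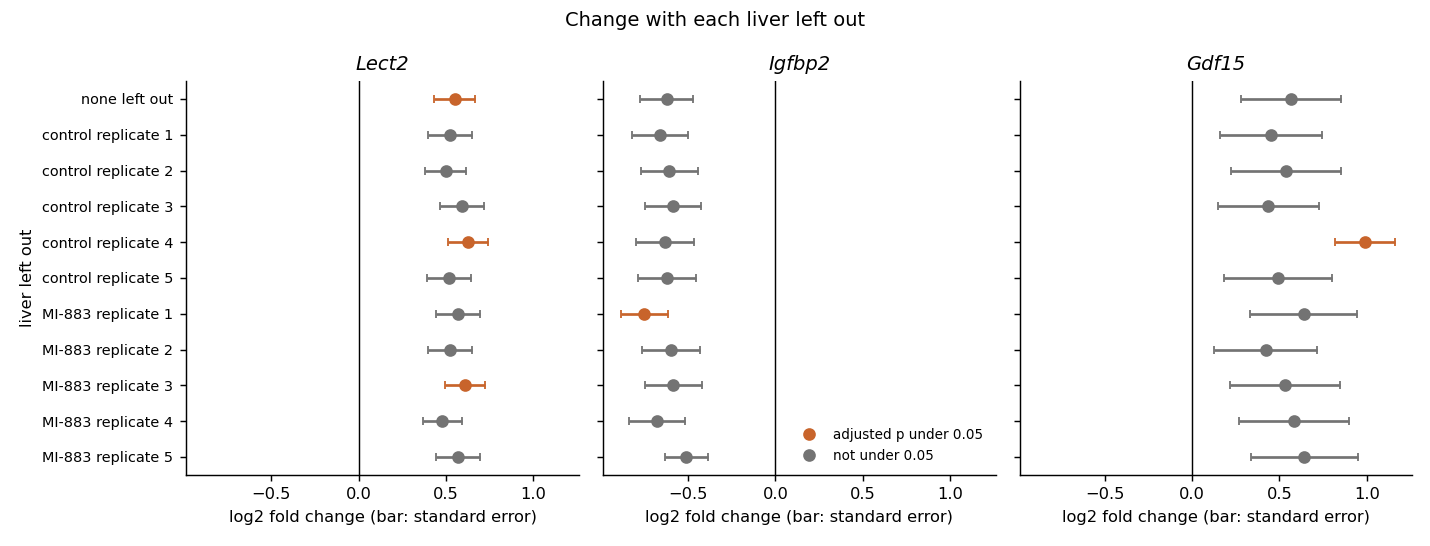
Change of *Lect2*, *Igfbp2* and *Gdf15* with all livers and with each liver left out (x axis: log2 fold change of MI-883 against control from edgeR; bars: standard error; orange: adjusted P under 0.05). *Gdf15* moves from 0.57 to 0.99 without control replicate 4, while *Lect2* stays between 0.48 and 0.63 and *Igfbp2* between -0.75 and -0.51.

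*Fgf21* (Entrez gene 56636, chromosome 7, 45613890 to 45615490, minus strand), a fasting and stress hormone of the liver, was at 6.76, 6.09, 4.25, 10.7 and 6.76 CPM in control livers 1 to 5 and at 5.64, 5.04, 7.81, 4.003 and 5.25 CPM in treated livers 1 to 5. Control liver 4 was again the highest, and the groups overlapped. The means were 6.90 ± 2.34 and 5.55 ± 1.40 CPM with a log2 fold change of -0.32 (SE 0.224, edgeR adjusted P = 0.521), and the 95% interval from -0.80 to 0.17 leaves out a rise of the size fitted for *Gdf15*. *Inhbe* (Entrez gene 16326, chromosome 10, 127349402 to 127351848, minus strand) was at 93.9, 64.7, 101.3, 106 and 111 CPM in control livers 1 to 5 and at 69.8, 67.8, 95.5, 81.3 and 141 CPM in treated livers 1 to 5. Treated liver 5 was the highest of all, while 4 of the 5 treated livers lay below the control median. Its means of 95.3 ± 18.2 and 91.0 ± 29.8 CPM differed by less than the spread between livers (log2 fold change -0.065, SE 0.194, adjusted P = 0.902).

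The promoters of *Fgf21* and *Inhbe* shared a motif that only 0.895% of all promoter windows held. The letters TTGCATCA, in capitals, are a composite site of the stress factors ATF4 and CHOP, and they lay 139 bases before the start of *Fgf21* and 181 bases before that of *Inhbe*. The stretches of 60 bases are at chr7:45615581-45615640 and chr10:127351979-127352038, both on the minus strand. The windows of the other 7 genes did not hold these letters. The E-box CACGTG also occurred in *Fgf21* and in the second window of *Gdf15*, the TATA box letters TATAAA (13.6% of all windows) in *Fgf21* and *Fetub*, and the FOXO letters GTAAACAA (1.23%) in the second window of *Fetub*. Direct repeats of AGGTCA spaced by 1 base (DR1, 0.0396% of all windows) or by 4 bases (DR4, 0.0152%) were in none of the 12 windows searched, which says nothing of the receptors that bind such repeats.
Fgf21 upstream stretch: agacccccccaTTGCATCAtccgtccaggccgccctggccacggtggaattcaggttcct
Inhbe upstream stretch: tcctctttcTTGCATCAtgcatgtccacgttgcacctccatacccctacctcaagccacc

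Of 18 genes of the integrated stress response, the ATF4-driven program to which *Fgf21* and *Gdf15* belong, 17 were tested, 9 with higher and 8 with lower fitted levels and a median log2 fold change of 0.013. Of these, 1 passed in edgeR. *Asns*, encoding asparagine synthetase, was at 0.75, 0.62, 1.23, 0.70 and 1.23 CPM in control livers 1 to 5 and at 1.09, 5.797, 2.37, 2.83 and 6.38 CPM in treated livers 1 to 5. Treated liver 1 lay within the control range and the other 4 above it. The log2 fold change was 2.05 (SE 0.427, edgeR adjusted P = 0.0396), and the call was kept without treated liver 1 or 3 and lost without any 1 of the other 8 livers (adjusted P up to 0.115). *Psat1*, of serine synthesis, had a log2 fold change of 1.23 that did not pass (adjusted P = 0.187), and the transcription factor genes *Atf4* and *Ddit3* had log2 fold changes of -0.0054 (adjusted P = 0.987) and 0.013 (adjusted P = 0.979).

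Of 16 PPAR-alpha target genes, a fasting program of fatty acid oxidation that includes *Fgf21*, 7 had higher and 9 lower fitted levels with a median log2 fold change of -0.031, 1 passed in edgeR, and DESeq2 also called *Fabp1*, a fatty acid-binding protein, as lower (adjusted P = 0.0177, and 0.176 in edgeR). *Pdk4*, a kinase that shuts off pyruvate dehydrogenase, was at 16.2, 15.03, 6.13, 18.5 and 12.7 CPM in control livers 1 to 5 and at 38.0, 26.6, 38.3, 25.3 and 38.4 CPM in treated livers 1 to 5, without overlap. Its log2 fold change was 1.27 (SE 0.2302, edgeR adjusted P = 0.0198), lost without control liver 5 or treated liver 5 (adjusted P up to 0.0627). *Cyp4a14*, a fatty acid hydroxylase, was at 511 ± 254 and 222 ± 149 CPM (log2 fold change -1.20, adjusted P = 0.208). Of 12 FOXO1 and insulin-regulated genes, which include the control of *Igfbp1*, 4 had higher and 8 lower fitted levels with a median of -0.16, and DESeq2 called 2 of them as lower. The lipogenic regulator *Srebf1* was the 1 that passed in edgeR, at 440.5, 385, 611, 488 and 505 CPM in control livers 1 to 5 and 276, 308, 384, 355 and 298 CPM in treated livers 1 to 5, without overlap by a margin under 1 CPM. Its log2 fold change was -0.58 (SE 0.126, edgeR adjusted P = 0.0470). The call of *Srebf1* was kept without control liver 1 or 2 or treated liver 3, was lost without any 1 of the other 7 livers (adjusted P up to 0.131), and was lost with scaling by total counts (adjusted P = 0.0662). *Irs2*, an insulin receptor substrate, had a log2 fold change of 0.37 (adjusted P = 0.452).

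The receptors through which FGF21 acts need beta-Klotho, the product of *Klb*. Of 5 tested FGF receptor genes, 2 had higher and 3 lower fitted levels and none passed in edgeR or DESeq2, with 3 at an unadjusted P under 0.05. *Klb* was at 15.9, 18.1, 25.1, 17.4 and 31.2 CPM in control livers 1 to 5 and at 15.7, 18.3, 16.03, 15.8 and 15.8 CPM in treated livers 1 to 5. The treated livers lay close together at the lower end of the controls (log2 fold change -0.39, SE 0.161, edgeR adjusted P = 0.267). *Fgfr4*, the main FGF receptor of hepatocytes, was at 29.4 ± 4.15 and 24.2 ± 2.97 CPM (log2 fold change -0.28, SE 0.106, adjusted P = 0.2297), and *Fgfr1* at 3.73 ± 0.3497 and 5.75 ± 2.12 CPM (log2 fold change 0.63, adjusted P = 0.185). Of 12 genes of the activin family and the GDF15 receptor, 8 were tested, 5 with higher and 3 with lower fitted levels, a median of 0.0058 and none with an unadjusted P under 0.05. *Inhbc*, the closest relative of *Inhbe*, was at 58.0 ± 10.99 and 58.3 ± 8.14 CPM (log2 fold change 0.0088, edgeR adjusted P = 0.983), and *Inhba* and *Acvr2b* had log2 fold changes of -0.21 (adjusted P = 0.671) and -0.22 (adjusted P = 0.604).

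The fetuins lie beside each other on chromosome 16. Fetuin A, which binds calcium phosphate in plasma and inhibits the insulin receptor, is encoded by *Ahsg* (Entrez gene 11625, 22892015 to 22899451, plus strand). It was at 3500.2, 3949, 5129, 4335 and 4934 CPM in control livers 1 to 5 and at 3393, 3756, 3160.3, 4109.7 and 3397 CPM in treated livers 1 to 5. All 5 treated livers lay below the control median and 3 below the lowest control. The means were 4369.6 ± 676 and 3563 ± 372 CPM, and the log2 fold change of -0.29 (SE 0.121, 95% interval -0.56 to -0.034) had an unadjusted P of 0.0299 and an adjusted P of 0.267 from edgeR. P was 0.0635 in the exact permutation test (two-sided).

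*Fetub* (Entrez gene 59083, 22918382 to 22939768, plus strand), encoding the protease inhibitor fetuin B, was at 454, 479, 500.4, 486 and 584 CPM in control livers 1 to 5 and at 498, 586, 353, 601 and 445 CPM in treated livers 1 to 5. The treated livers held both the lowest and the highest value. The means of 501 ± 49.2 and 497 ± 102 CPM gave a log2 fold change of -0.012 (SE 0.133, 95% interval -0.30 to 0.27, edgeR adjusted P = 0.977), and its sign turned with scaling by total counts. The related plasma proteins of the same cystatin family did not pass either. *Hrg* was at 949 ± 93.8 and 1003 ± 150.4 CPM (log2 fold change 0.080, adjusted P = 0.765), *Kng1* at 2342 ± 223 and 2092 ± 139 CPM (-0.16, adjusted P = 0.413) and *Kng2* at 394 ± 33.2 and 353 ± 30.9 CPM (-0.16, adjusted P = 0.382).

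With the group means of log2 CPM removed, *Ahsg* and *Fetub* varied together over the 10 livers (Pearson r = 0.70, P = 0.00549, adjusted over 6 pairs 0.0329; Spearman rho = 0.77, P = 0.00708, adjusted 0.0425; exact permutation within groups). Without control livers 1 and 3, the farthest from the median of *Ahsg*, r was 0.87. With levels scaled by total counts, r was 0.43 (exact permutation P = 0.0926, adjusted 0.278), so that the relation depended on the scaling. *Fgf21* and *Gdf15* had r = 0.65 (exact permutation P = 0.0993, adjusted 0.298) and rho = 0.37 (P = 0.345), and r was 0.040 without control livers 3 and 4, on which it rested. The other 4 pairs examined had r between -0.12 and 0.35, with adjusted P from 0.301 to 0.799. *Igfbp1* and *Igfbp2* were the pair at 0.35, *Fgf21* and *Inhbe* had 0.17, *Fgf21* and *Igfbp1* had 0.13 and *Gdf15* and *Inhbe* had -0.12.

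**Figure D4:**
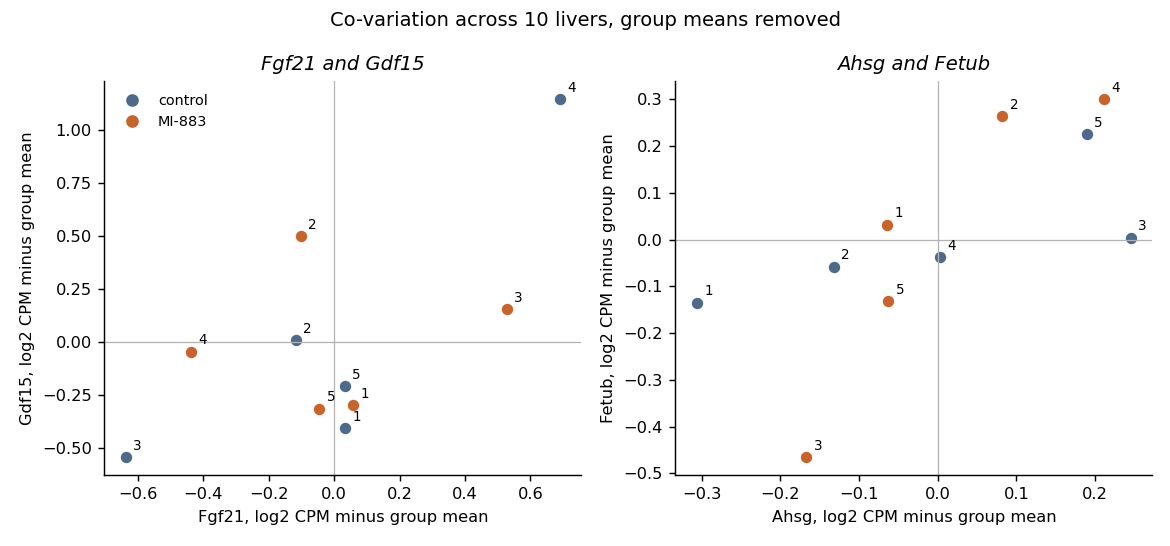
Levels of *Fgf21* and *Gdf15* (left) and of *Ahsg* and *Fetub* (right) in the 10 livers, as log2 CPM minus the mean of the liver's group on both axes (blue: control, orange: MI-883, numbered by replicate). On the left control livers 3 and 4 lie at opposite corners, and on the right the points rise together (r = 0.70).

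*Angptl6* and *Enho* showed no difference beyond the spread. *Angptl6* (Entrez gene 70726, chromosome 9, 20873808 to 20879822, minus strand), an angiopoietin-like growth factor linked to energy use, was at 12.9, 16.4, 15.5, 16.9 and 15.2 CPM in control livers 1 to 5 and at 14.7, 14.9, 14.5, 17.1 and 13.4 CPM in treated livers 1 to 5. It varied the least of the 10 genes, with an S.D. of log2 CPM of 0.140 within groups. Its log2 fold change of -0.046 (SE 0.0910, 95% interval -0.24 to 0.15, edgeR adjusted P = 0.842) leaves out a change of the size fitted for *Lect2*. The last bases of *Angptl6* overlap *Shfl*, which was at 35.0 ± 6.25 and 41.6 ± 9.84 CPM. *Enho* (Entrez gene 69638, chromosome 4, 41638144 to 41640302, minus strand) was at 1.26, 2.06, 3.07, 2.32 and 2.11 CPM in control livers 1 to 5 and at 1.44, 1.81, 1.44, 3.61 and 1.67 CPM in treated livers 1 to 5. Treated liver 4 was the highest and the other 4 lay below the control median. Its log2 fold change was -0.12 with a wide 95% interval from -0.74 to 0.51 (edgeR adjusted P = 0.877).

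The 6 other angiopoietin-like genes, several of which inhibit lipoprotein lipase, had 4 higher and 2 lower fitted levels with a median log2 fold change of 0.29, and none passed in edgeR. *Angptl4* was at 169 ± 37.2 and 200.2 ± 35.4 CPM (log2 fold change 0.25, adjusted P = 0.461) and *Angptl8* at 44.5 ± 25.7 and 29.8 ± 6.24 CPM (-0.58, adjusted P = 0.411). Of 23 further hepatokines, 22 were tested, 9 with higher and 13 with lower fitted levels, a median of -0.050 and none past the threshold in edgeR, while 5 had an unadjusted P under 0.05 and 2 passed in DESeq2. The 2 were *Sparc* (log2 fold change 0.63, adjusted P = 0.0581 in edgeR, 0.0029 in DESeq2) and *Tsku* (0.52, adjusted P = 0.111 in edgeR, 0.0168 in DESeq2). The iron hormone gene *Hamp* was at 625 ± 206 and 373 ± 109 CPM (log2 fold change -0.74, adjusted P = 0.147) and *Gpnmb* at 5.62 ± 6.04 and 17.1 ± 14.2 CPM (1.57, adjusted P = 0.356).

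Over the 9 lists of partners and relatives, 102 of 112 genes were tested, with 48 higher and 54 lower fitted levels and a median log2 fold change of -0.031. *Asns*, *Pdk4* and *Srebf1* were the 3 that passed in edgeR, beside 1.03% of all tested genes. A further 22 had an unadjusted P under 0.05 without passing, beside 15.6% of all tested genes at that level in all. DESeq2 called 11 of the 102, 6 higher and 5 lower, beside 3.5% of all tested genes.

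**Figure D5:**
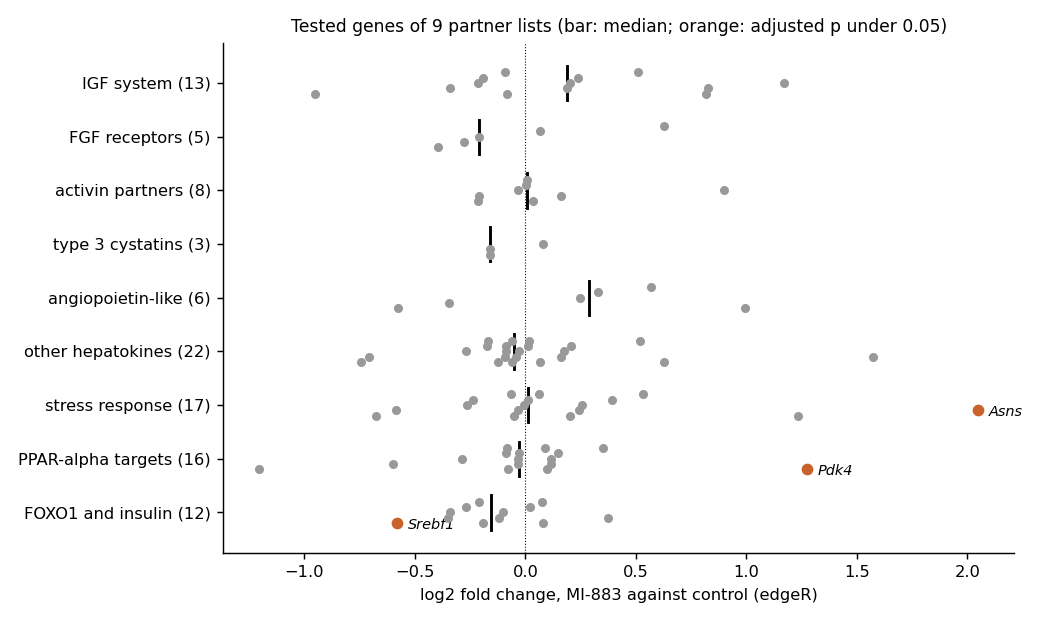
Fitted changes of the tested genes in 9 lists of partners and relatives (x axis: log2 fold change of MI-883 against control from edgeR; 1 point per gene; vertical bars: list medians; orange: adjusted P under 0.05; the number of tested genes after each list name). The 3 orange points are *Asns*, *Pdk4* and *Srebf1*, and the list medians lie between -0.21 and 0.29.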

How the data were processed

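Liver RNA of 5 control and 5 MI-883-treated mice was sequenced from directional libraries as paired-end reads. The authors trimmed reads with fastp 0.23.0 (submitters' processing notes), aligned to mm10 by STAR and assigned reads to genes by featureCounts. The versions of the latter, the annotation and the strand setting are not given in the sources used here. The deposited values are raw counts per gene without normalization, with Entrez gene numbers, of which 16644 of 16647 matched RefSeq (GRCm38.p6) for symbols, positions and promoters. Transcript lengths are those of the longest GENCODE M21 transcript of the gene that is matched to a RefSeq mRNA.

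Groups followed the labels. Genes with at least 60 counts over the 10 livers were tested with edgeR 4.0.16 in R 4.3.3 (TMM, quasi-likelihood F test, treatment group as the only covariate, Benjamini-Hochberg adjustment, threshold 0.05). The study used DESeq2, which was run here (version 1.42.0) as an alternative. The other alternatives were DESeq2 size factors, total counts, 60 counts in every liver (9959 genes), filterByExpr, all genes unfiltered, a replicate block, and leaving out each liver. Intervals are 95% intervals of the fit. The pipeline was tested on simulated data. Counting error was not separated from the spread between livers, also in the genes with the fewest counts, *Enho* and *Fgf21*.

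The genes, the lists and the tests were chosen with earlier results of these data known. The 10 genes are reported in full. From each other list, the genes under the threshold, the 2 tested genes of at least 1 CPM with the largest log2 fold change and fixed receptors and relatives are named, apart from a result that is not reported here. *Atf4*, *Ddit3*, *Fabp1*, *Sparc*, *Tsku*, *Ttr* and the overlapping neighbours were named after their values were seen. P values measure the spread between livers of separate animals.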

Additional observations from a re-analysis of the deposited data

Results flagged for a closer look

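In 7 of 86 groups of 5 livers, over the 43 genes checked, 1 liver lay far from the other 4 by Dixon's criterion, which chance meets in about 1 of 20 groups. Among the 10 hepatokines these were *Gdf15* in control liver 4, at 53.3 CPM with the nearest control at 24.2, and *Enho* in treated liver 4, at 3.61 CPM with the nearest treated liver at 1.81. The value of *Gdf15* decides whether that gene passes the threshold, while the log2 fold change of *Enho* did not pass with or without treated liver 4. Among partners, *Klb* was at 18.3 CPM in treated liver 2 (nearest 16.03), *Inhbc* at 77.0 CPM in control liver 3 (nearest 56.2) and *Hamp* at 563 CPM in treated liver 4 (nearest 348). Of the cell type markers, *Lyve1* was at 15.998 CPM in control liver 2 (nearest 11.1) and *Oit3* at 13.0 CPM in control liver 1 (nearest 16.9). No liver was far from the others in more than 2 of these 7 groups.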

How the results depend on the processing

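Of 181 recomputed fold changes and correlations, 152 kept their direction and their side of the threshold, and 26 of 51 recomputed counts of calls stayed within 1.5 times the count reported. The 136 calls over all tested genes (101 higher, 35 lower) compare with 463 in DESeq2 (291 higher, 172 lower) and with 62 to 208 when 1 liver was left out. Of the 10 genes, 1 was called by edgeR, 2 by DESeq2 and 0 to 2 with 1 liver left out, and of the 102 list genes 3, 11 and 0 to 3. *Lect2* was called under 6 of the 7 alternatives that kept all livers and ranged from 0.48 to 0.63 on the log2 scale with 1 liver left out, *Igfbp2* from -0.75 to -0.51 and *Gdf15* from 0.42 to 0.99. *Igfbp2* was at -0.62 in DESeq2, which called it. The replicate block gave 89 calls over all genes, 0 of the 10, and *Lect2* at 0.55 (edgeR adjusted P = 0.0530). *Pdk4* and *Asns* were not called under it either (edgeR adjusted P = 0.0545 for both). Same-numbered livers did not deviate together (correlations -0.12 to 0.36, and no liver correlated best with its own number). The values thus gave no sign of a pairing by number, although such a check cannot exclude one.

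The direction turned in *Igfbp1*, at 0.043 with total counts, 0.010 with 60 counts in every liver and 0.21 with the replicate block. It also turned in *Fetub*, at 0.022 with total counts and 0.0028 with 60 counts in every liver. With 1 liver left out the log2 fold changes ranged from -0.26 to 0.35 for *Igfbp1*, -0.090 to 0.089 for *Fetub*, -0.28 to 0.024 for *Inhbe* and -0.44 to 0.037 for *Enho*, none of them past the threshold, and the cause was not tested. *Enho* gave no value under 60 counts in every liver. Total counts shifted the median log2 fold change of all genes by 0.044, and the correlation of *Ahsg* and *Fetub* was then 0.43. *Enho* and *Fgf21* had the fewest counts, and the 95% intervals were widest for *Igfbp1*, *Enho* and *Gdf15*.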
